A study of Mus musculus with 32 samples.

Results

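RNA from tumour-associated macrophages and microglia (TAM) of mouse gliomas was compared between the dormant Endpoint of BLZ945 treatment and Vehicle, over all genes. The comparison takes the 6 Endpoint and 5 Vehicle TAM libraries, 11 of the 32 libraries of the series, each from a different mouse, chosen by cell type and stage in the labels. XFM mice received DF-1 cells, chicken fibroblasts that carried the growth factor gene PDGFB, in the brain at 5 to 6 weeks of age, which started the tumours. Mice entered treatment at a tumour volume of 20 to 40 mm3 and were dosed daily until symptoms appeared or until 26 weeks of age. Endpoint mice received BLZ945, an inhibitor of the CSF-1 receptor, and the labels call their tumours dormant. Treatment was taken from the stage because the label for the agent names BLZ945 for the Vehicle mice too. The labels give neither the age of each mouse at collection nor the genetic makeup behind the strain name. Cells with CD11b and without Gr1 were sorted from digested tumours, and a SMART-Seq kit gave libraries that were sequenced as 2 reads of 50 bases.

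The CSF-1 receptor is a tyrosine kinase on microglia and macrophages that signals for survival, proliferation and differentiation through the ERK and PI3K pathways when CSF-1 or IL-34 binds. In the brain it keeps microglia alive, and in gliomas the same receptor serves both resident microglia and macrophages that arrive from blood monocytes. Some macrophages survive its blockade in gliomas, and the series title puts an IGF1 loop behind resistance to that blockade.

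The defining genes of the sorted cell type were present in both groups. The summed level of 14 pan-myeloid genes was 48215 to 53205 CPM (counts scaled to a common library total, here the total count) in Endpoint and 47284 to 61109 in Vehicle, and that of 10 microglial genes was 26511 to 28257 and 25899 to 34442. Of the 14 pan-myeloid genes 6 fell, 3 of them in all 4 fits, and of the microglial genes 5 fell, 4 in all 4 fits; none of either list rose. Total counts were 9.54 to 15.8 M in Endpoint and 25.6 to 30.4 M in Vehicle. Every Endpoint count was even, whereas 43174 Vehicle counts were odd, so this difference in the files, the treatment and the depth cannot be told apart. The Vehicle libraries also fell into 2 kinds: in mice 54359, 54363 and 64247 genes with GC-rich transcripts stood high, with 1.10, 0.92 and 0.64 log2 units between the groups of genes with the highest and the lowest GC content, when all genes were cut into 5 groups of equal size. In Vehicle mice 57098 and 57682 the same difference was -0.31 and -0.44, and in Endpoint it was -0.29 to -0.03. The share of counts from the ribosomal precursor Rn45s was 6.83 to 7.66% in the former 3 Vehicle libraries, 1.71 and 0.391% in the other 2, and 3.69 to 6.54% in Endpoint. One Endpoint library, mouse 49843, was the closest of the 6 to Vehicle in 32.4% of the genes that fell and 35.2% of those that rose, against 6.59 to 16.4% for the other 5.

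**Figure D1:**
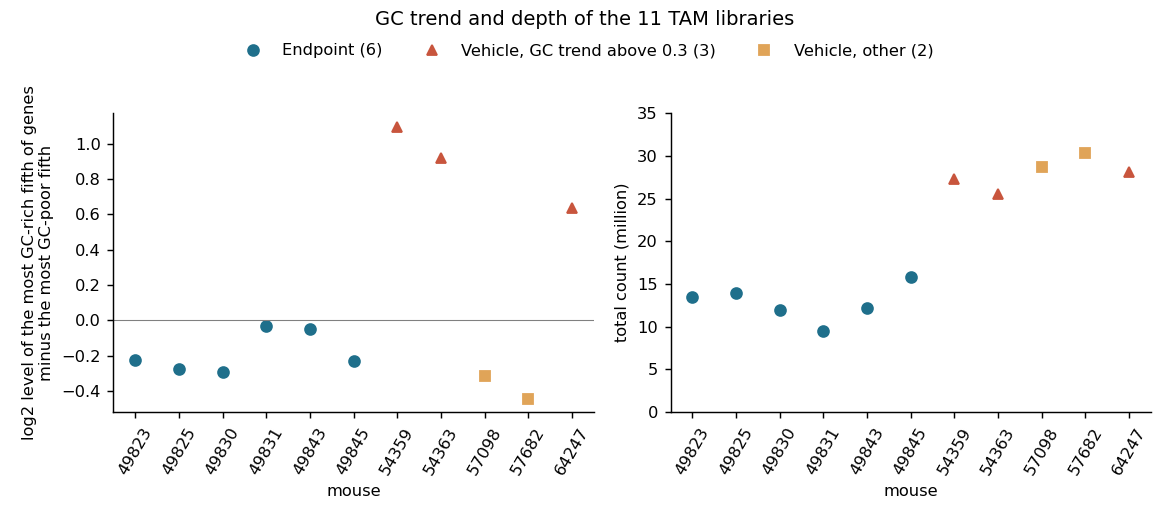
GC trend (left, log2 difference between the genes of highest and lowest transcript GC content, of 5 equal groups) and total counts in M (right) of the 11 TAM libraries, 1 point per mouse. Vehicle mice 54359, 54363 and 64247 lie between 0.64 and 1.10 in GC trend, above the other 8 libraries, and all Vehicle totals exceed all Endpoint totals.

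Of 13315 genes tested with edgeR, 1821 (13.7%) rose and 2569 (19.3%) fell at Endpoint at an adjusted p under 0.05, the meaning of "rose", "fell" and "called" throughout. With upper-quartile scaling the split turned to 2497 higher and 1921 lower, so that 56.5% of the calls were higher in place of 41.5%, and the median log2 fold change of all genes moved from -0.03 to 0.13. Large folds were more frequent among the genes that fell: 251 fell and 71 rose by more than 3 log2 units. In 2583 genes (19.4%) the CPM ranges of the 2 groups did not overlap. To set aside the 2 kinds of Vehicle library, the comparison was repeated against each kind alone and with the trend in GC content and length removed. In all 4 fits 610 genes rose (4.58%) and 1167 fell (8.76%). The genes named below as called held in all 4 unless stated otherwise. Of the 5 groups by GC content, 22.3% of the genes rose and 6.75% fell in the lowest, while 7.17% rose and 27.0% fell in the highest.

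The genes that fell were more often genes of the macrophage sort than of the tumour cell sort. Each gene was classed by the contrast of TAM and tumour cell libraries at Rebound, which enter neither group compared here. Of 3177 genes higher in the TAM sort, 1146 (36.1%) fell and 299 (9.41%) rose. Of 3082 genes higher in the tumour cell sort, 623 (20.2%) rose and 247 (8.01%) fell. In sorted bulk samples, fewer cells of a type and less RNA per cell cannot be told apart.

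Across 31 gene lists the calls leaned to lower levels. The shares of all genes, 19.3% lower and 13.7% higher, are the measure for each count of list members below. Glycolysis and hypoxia genes fell most often, with 25 of 34 tested members lower and 1 higher, beside 19.3 and 13.7% of all genes, and a median log2 fold change of -1.45, beside -0.03 for all genes. Chemoattractant receptors followed with 15 of 23 lower, then the ERK feedback genes with 11 of 17 and proteasome subunits with 19 of 31, with none higher in these 3 lists. In all 4 fits 18 of the glycolysis and hypoxia genes fell, 9 of the chemoattractant receptors, 7 of the ERK feedback genes and 6 of the proteasome subunits. Leaning the other way was the list of TGF-beta receptors and targets, with 6 of 24 higher and 2 lower, 3 and 2 in all 4 fits. Its median log2 fold change was 0.10, and over the settings tried 4 to 8 members were higher and 2 to 4 lower. The cell cycle lists gave few calls: of 30 G2/M genes 4 rose and 2 fell, and of 32 G1/S genes 2 rose and none fell, and none of these held in all 4 fits.

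**Figure D2:**
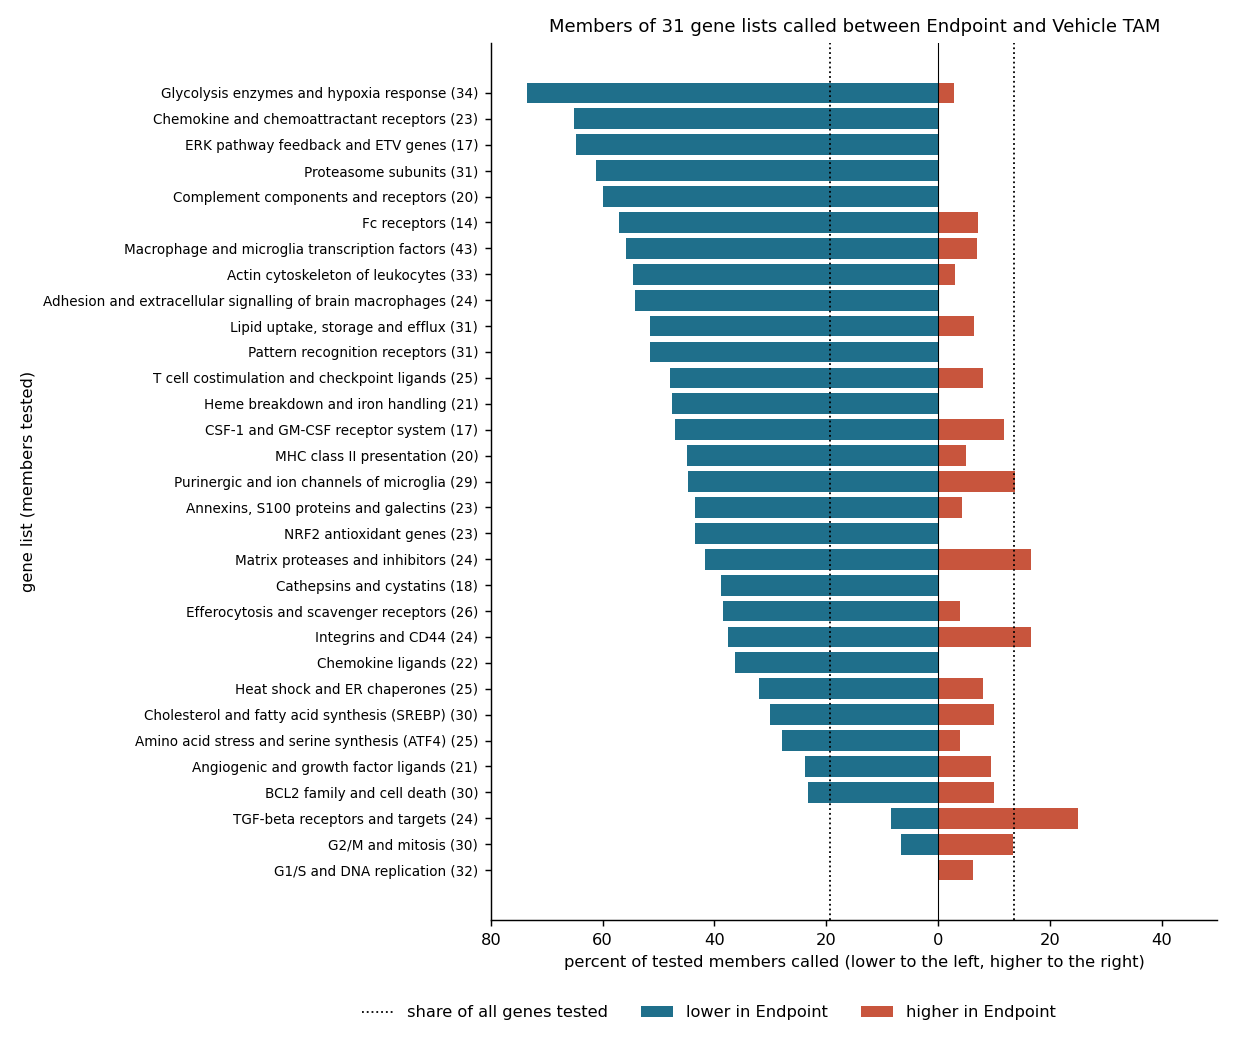
Share of the tested members of each of 31 gene lists that fell (bars to the left) or rose (bars to the right) at Endpoint, in percent, with the number tested in brackets. Dotted lines mark the shares of all 13315 genes, 19.3% lower and 13.7% higher; glycolysis and hypoxia genes reach furthest left and TGF-beta receptors and targets furthest right.

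The drug's target and its ligands came first. For each gene below, Endpoint levels are given as lowest, median and highest of the 6 mice, and Vehicle levels in the order of mice 54359, 54363, 57098, 57682 and 64247, in CPM after TMM scaling. Sizes after "fell by" or "rose by" are log2 fold changes. Csf1r, the receptor itself, read 6347, 6966 and 8228 CPM at Endpoint and 17411, 10303, 9539.8, 8108 and 9073 in Vehicle. The groups overlapped at 1 Vehicle library, mouse 57682, and mouse 54359 stood high. Its log2 fold change was -0.61 ± 0.20 (SE; adjusted p = 0.027), but -0.36 (adjusted p = 0.12) without that mouse, and the call was also lost without Endpoint mouse 49823, 49825, 49831 or 49843, against Vehicle mice 57098 and 57682 alone, with upper-quartile scaling and with the GC trend removed. Csf1, the ligand that macrophages can also make themselves, read 16.1, 19.1 and 39.1 CPM at Endpoint and 487, 189.7, 84.8, 90.04 and 136 in Vehicle. The groups did not overlap, and the log2 fold change of -3.17 ± 0.44 (adjusted p = 7.6e-05) was a 9.01-fold fall, or 5.68-fold without Vehicle mouse 54359. Il34, the other ligand, lay at or under 1.08 CPM in every library and was not called (adjusted p = 0.64).

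Receptors of the related GM-CSF and IL-3 family moved in opposite directions. Csf2rb, the signalling chain shared by the GM-CSF, IL-3 and IL-5 receptors, read 139, 172 and 210.1 CPM at Endpoint and 424, 365, 521, 655 and 477 in Vehicle. All 6 Endpoint libraries lay below all 5 Vehicle libraries, with a log2 fold change of -1.48 ± 0.19 (adjusted p = 1.9e-05). Its mouse paralog Csf2rb2, the IL-3-specific chain, fell by 1.95 log2 units (adjusted p = 7.8e-06); reads of these closely similar genes may be split between them. The ligand-binding chains rose: Csf2ra, for GM-CSF, read 61.4, 68.4 and 77.7 CPM against 47.97, 47.1, 12.5, 34.7 and 40.4, a log2 fold change of 0.91 ± 0.24 (adjusted p = 0.0063). Il3ra, for IL-3, read 5.97, 8.79 and 13.3 CPM against 0.205, 2.44, 1.15, 1.03 and 1.76, a log2 fold change of 2.81 ± 0.43 (adjusted p = 9.9e-05). Kit, a receptor tyrosine kinase of the same class as Csf1r, was at 0.375, 0.640 and 1.65 CPM against 7.48, 6.44, 25.1, 48.9 and 18.05. Its 25.7-fold fall (adjusted p = 0.00052) was 17.1-fold without Vehicle mouse 57682 and did not pass with limma-voom (adjusted p = 0.056). Of the 17 tested genes of the CSF-1 and GM-CSF receptor system 8 fell and 2 rose, beside 19.3% lower and 13.7% higher of all genes. In all 4 fits 6 of them fell and 2 rose.

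Genes that respond to ERK signalling were among the most clearly separated. Dusp6, the phosphatase that ERK induces and that switches ERK off again (chr10:99263231-99267489, mm10), read 44.98, 64.02 and 85.98 CPM at Endpoint and 934, 842, 892, 899 and 500.2 in Vehicle. The highest Endpoint library lay far under the lowest Vehicle library, and the log2 fold change was -3.68 ± 0.29 (adjusted p = 2.5e-07), a 12.8-fold fall. Dusp7, a phosphatase of the same family, read 0.631, 1.19 and 1.57 CPM against 45.7, 49.5, 12.7, 28.7 and 23.8. That is a log2 fold change of -4.78 ± 0.42 (adjusted p = 7.7e-07), again without overlap. The immediate early transcription factor Myc read 2.65, 4.54 and 9.59 CPM against 78.8, 123, 163, 95.5 and 79.4, with a log2 fold change of -4.44 ± 0.55 (adjusted p = 3.4e-05). Etv5, an ETS factor induced by ERK, fell by 1.65 log2 units (adjusted p = 0.00060) and Ier3, an early response gene, by 4.07 (adjusted p = 0.00047). The 17 tested members of the list had a median log2 fold change of -1.70, and 7 fell in all 4 fits.

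Microglial genes divided into those that fell and those that did not pass the test. Fcrls, an Fc receptor-like gene of microglia, read 30.8, 87.3 and 1004 CPM against 6904, 4115, 1422, 4495 and 6433. The highest Endpoint value is that of mouse 49843, and the log2 fold change of -4.31 ± 0.97 (adjusted p = 0.0035) was -5.82 (adjusted p = 0.00011) without it. P2ry12, the ADP receptor that directs microglial processes, read 989, 1171 and 1449 CPM against 3281, 2460.4, 2555, 4467 and 1948. The fold change was -1.30 ± 0.29 on the log2 scale (adjusted p = 0.0024), and that of its neighbour gene P2ry13 was -2.04 ± 0.33 (adjusted p = 0.00017). The fructose transporter Slc2a5 fell by 2.06 (adjusted p = 2.4e-05), and Crybb1, a crystallin gene of microglia, by 2.17 (adjusted p = 0.00029). Ecscr read 0.505, 1.69 and 10.8 CPM against 186, 159.8, 83.9, 206 and 169, a log2 fold change of -5.64 ± 0.66 (adjusted p = 2.7e-05), or -6.52 without mouse 49843. The fractalkine receptor Cx3cr1 fell by 0.97 (adjusted p = 0.0017). Itgam, which encodes the CD11b used for the sort, read 603, 749.9 and 809.8 CPM against 2538, 1573, 2547, 3353 and 2369.7, a log2 fold change of -1.77 ± 0.18 (adjusted p = 3.2e-06).

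Other microglial genes did not pass the test. Sall1, a transcription factor of microglial identity, read 305, 352 and 479 CPM against 323, 251, 269, 208 and 135, with a log2 fold change of 0.64 ± 0.27 (adjusted p = 0.074); without Vehicle mouse 54359 it was called higher (0.79, adjusted p = 0.044), as it was with DESeq2 (0.66, adjusted p = 0.043) and in a fit of the 11 libraries alone (0.65, adjusted p = 0.025). The lectin Siglech had 0.47 ± 0.22 (adjusted p = 0.11; 0.031 in that fit of 11) and the receptor Gpr34 0.10 ± 0.29 (adjusted p = 0.82), the latter of opposite sign with the GC trend removed. The adaptor Tyrobp had -0.06 ± 0.23 (adjusted p = 0.87), of opposite sign with upper-quartile scaling. Tmem119, a surface marker of microglia, depended on the kind of Vehicle library: its log2 fold change of -0.80 ± 0.31 (adjusted p = 0.054) was 0.24 (adjusted p = 0.60) against mice 57098 and 57682 and -1.23 (adjusted p = 0.0015) against the other 3. It was called lower without Vehicle mouse 57098 or 57682 (-0.98 and -0.97). Of the 10 microglial markers 5 fell and none rose.

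MHC class II molecules display peptides to CD4 T cells, and the transcription factor Ciita switches on their genes through a shared promoter module of X and Y boxes. The classical genes fell and the accessory ones differed among themselves. To show that module, the 150 bases before the start of 6 of these genes are printed 5' to 3' on the gene's strand, from RefSeq, build GRCm38.p6; capitals mark GATTGG, the core of the Y box, and GATGATG, letters of the X box, each on either strand.
H2-Aa: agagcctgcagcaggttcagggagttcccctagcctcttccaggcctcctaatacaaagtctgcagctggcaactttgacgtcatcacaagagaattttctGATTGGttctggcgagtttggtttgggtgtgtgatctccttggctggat
H2-Eb1: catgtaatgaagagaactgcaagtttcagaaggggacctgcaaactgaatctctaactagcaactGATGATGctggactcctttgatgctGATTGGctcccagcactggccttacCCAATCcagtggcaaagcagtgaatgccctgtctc
H2-DMb1: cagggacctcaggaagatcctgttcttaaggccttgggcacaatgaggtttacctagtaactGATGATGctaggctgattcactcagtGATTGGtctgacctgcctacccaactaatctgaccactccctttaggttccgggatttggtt
H2-DMb2: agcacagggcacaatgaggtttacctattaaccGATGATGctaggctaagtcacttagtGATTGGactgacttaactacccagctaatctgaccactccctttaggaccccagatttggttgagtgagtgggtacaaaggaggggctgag
H2-Oa: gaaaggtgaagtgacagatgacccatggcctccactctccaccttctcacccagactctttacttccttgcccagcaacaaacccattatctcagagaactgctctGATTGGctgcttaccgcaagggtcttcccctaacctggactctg
H2-Ob: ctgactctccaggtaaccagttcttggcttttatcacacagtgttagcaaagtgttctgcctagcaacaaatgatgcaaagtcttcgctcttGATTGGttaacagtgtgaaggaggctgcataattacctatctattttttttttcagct
H2-Aa lies at chr17:34287824-34287973 (minus strand), H2-Eb1 at chr17:34305717-34305866, H2-DMb1 at chr17:34153041-34153190, H2-DMb2 at chr17:34145099-34145248, H2-Oa at chr17:34092229-34092378 and H2-Ob at chr17:34238755-34238904 (all plus strand). GATTGG stood in all 6 windows and in 10.9% of 32851 promoter windows of that length. The 2 windows listed for H2-DMa held neither GATTGG nor GATGATG and are not printed. No window is reported for H2-Ab1, Ciita or Cd74, so the windows shown are not a full survey of the module. GATGATG stood in the windows of H2-Eb1, H2-DMb1 and H2-DMb2, with 18 or 19 bases between it and GATTGG and no overlap. It was found in 592 of the 32851 windows (1.8%), and both stood in 57 (0.174%). These letters were chosen after the windows had been read, and a match is a description, not a site.

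Of the 3 chains with classical function, H2-Aa read 41.3, 83.8 and 167 CPM at Endpoint and 1111, 836, 1811, 2010.1 and 1464 in Vehicle. No library overlapped, and the log2 fold change was -3.90 ± 0.57 (adjusted p = 0.00012). H2-Ab1 had -3.68 ± 0.49 (adjusted p = 4.8e-05) and H2-Eb1, whose window holds both motifs, -3.78 ± 0.55 (adjusted p = 0.00012). Cd74, the invariant chain that fills the groove until peptide is loaded, read 1598, 2224 and 2783 CPM against 7270.2, 4425, 11822, 11449 and 6286 and fell by 1.90 log2 units (adjusted p = 0.0012). Ciita read 0.884, 3.68 and 15.8 CPM against 51.5, 41.4, 119, 106 and 74.6. Its log2 fold change of -3.88 ± 0.72 (adjusted p = 0.00094) was -4.63 without Endpoint mouse 49823, the highest of its group. The peptide-exchange chains H2-DMb1 (-1.17 ± 0.21, adjusted p = 0.00044) and H2-DMb2 (-1.87 ± 0.39, adjusted p = 0.0013) fell, though reads of these closely similar genes may be split between them. H2-DMa (-0.41 ± 0.21, adjusted p = 0.14), H2-Oa (-0.49 ± 0.28, adjusted p = 0.19) and H2-Ob (-0.20 ± 0.20, adjusted p = 0.47), the last 2 being chains of the inhibitor of peptide exchange, did not pass. Of 20 tested genes of the list 9 fell and 1 rose. The summed level of 11 dendritic cell markers was 84.9 to 142 CPM at Endpoint and 124 to 335 CPM in Vehicle, and the ranges overlapped. Of 10 tested dendritic cell markers 4 fell, 2 of them in all 4 fits, and none rose. Their part in the fall of the MHC class II genes was not tested.

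Genes of chemokines, chemoattractant receptors and complement fell and none rose in these lists; 8 of 22 chemokine ligands were lower. Over the settings tried, up to 2 chemokine ligands and 1 receptor were called higher. Ccl2, the main attractant of monocytes, read 6.67, 9.13 and 15.2 CPM against 80.1, 124, 392, 127 and 105. The groups did not overlap, and its 17.2-fold fall (adjusted p = 0.0014) was 11.4-fold without Vehicle mouse 57098. Ccr2, the receptor for Ccl2 on monocytes, read 5.68, 13.8 and 44.5 CPM against 39.05, 39.4, 121, 777 and 121, and the groups overlapped. Its 12.6-fold fall (adjusted p = 0.0054) was 4.56-fold without Vehicle mouse 57682 and was not called against Vehicle mice 54359, 54363 and 64247 (-1.92, adjusted p = 0.064). Ccr1, a receptor for several inflammatory chemokines, read 2.27, 4.63 and 11.5 CPM against 56.8, 48.5, 157, 378 and 113, a 25.2-fold fall (adjusted p = 0.00080), or 15.6-fold without mouse 57682. C5ar1, the receptor for the complement fragment C5a, fell by 2.33 log2 units (adjusted p = 0.0065). Of 23 chemoattractant receptors 15 fell, 9 of them in all 4 fits. The summed level of 14 monocyte and infiltrating macrophage markers was 164 to 608 CPM at Endpoint and 806 to 4437 CPM in Vehicle without overlap, with 8 of 14 markers lower, 2 of them in all 4 fits. The median log2 fold change of these markers was -3.23 against mice 57098 and 57682 and -1.04 against the other 3, and their part in these results was not tested.

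Among 20 complement genes 12 fell and none rose. C4b, a component of the classical pathway, read 9.22, 14.1 and 118 CPM against 471, 169, 961, 729 and 349.7; its log2 fold change of -4.11 ± 0.73 (adjusted p = 0.00067) was -5.30 without Endpoint mouse 49823, and reads may be shared with a near-identical copy. Cfb, the protease of the alternative pathway, fell by 2.84 (adjusted p = 0.00084), and Cfp, the stabiliser of that pathway's convertase, by 2.75 (adjusted p = 0.00022). Itgb2, the integrin chain that pairs with CD11b to form a complement receptor, read 870.4, 998 and 1098 CPM against 2638, 1774, 2110.1, 2242 and 1685. It fell by 1.08 (adjusted p = 3.6e-05). C1qb, a chain of the initiator C1q, fell by 1.27 (adjusted p = 0.00095) but was not called against mice 57098 and 57682 (-0.62, adjusted p = 0.11).

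Scavenging and heme handling genes gave some of the steepest falls. Hmox1, heme oxygenase, which breaks heme down to iron, carbon monoxide and biliverdin (chr8:75093621-75100589, mm10), read 35.2, 39.3 and 94.3 CPM at Endpoint and 1953, 2753, 1187, 1150.1 and 4865 in Vehicle. No library overlapped, and the log2 fold change was -5.59 ± 0.47 (adjusted p = 1.0e-06), a 48.2-fold fall. Slc48a1, which carries heme out of lysosomes, fell by 1.33 (adjusted p = 3.4e-05), and Slc40a1, the iron exporter ferroportin, by 1.98 (adjusted p = 0.00040). The ferritin light chain Ftl1, a gene with many near-identical copies, fell by 1.52 (adjusted p = 0.00047) with the groups overlapping. In all, 10 of 21 genes of heme and iron fell and none rose.

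Of 26 receptors for dying cells and modified lipoproteins, 10 fell and 1 rose. Stab1, a receptor for phosphatidylserine and modified lipoproteins, read 54.8, 79.7 and 93.1 CPM against 369, 280.3, 250.3, 551 and 554, a log2 fold change of -2.39 ± 0.26 (adjusted p = 5.3e-06). Msr1, scavenger receptor A, read 0.994, 2.98 and 19.8 CPM against 30.1, 20.8, 104, 159 and 86.2; its log2 fold change of -3.74 ± 0.80 (adjusted p = 0.0025) was -4.61 without Endpoint mouse 49843. Timd4, a phosphatidylserine receptor of resident macrophages, lay at 0 to 0.473 CPM at Endpoint and at 10.5, 7.82, 13.5, 19.9 and 20.2 CPM in Vehicle (adjusted p = 0.00011). Mrc1, the mannose receptor CD206, overlapped between the groups, with 4.31, 10.6 and 13.05 CPM against 20.8, 5.91, 62.00, 46.7 and 14.5. Its log2 fold change of -1.59 ± 0.52 (adjusted p = 0.027) was -0.46 (adjusted p = 0.49) against Vehicle mice 54359, 54363 and 64247, and the call was lost without Endpoint mouse 49831 (-1.44) or Vehicle mouse 57098 (-1.15) or 57682 (-1.36), and with limma-voom (adjusted p = 0.18). The summed markers of perivascular macrophages, of which Mrc1 is 1, were 25.8 to 88.8 CPM at Endpoint and 36.9 to 502 CPM in Vehicle, and Cd209f was at 0 in all Endpoint libraries; their part was not tested.

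**Figure D3:**
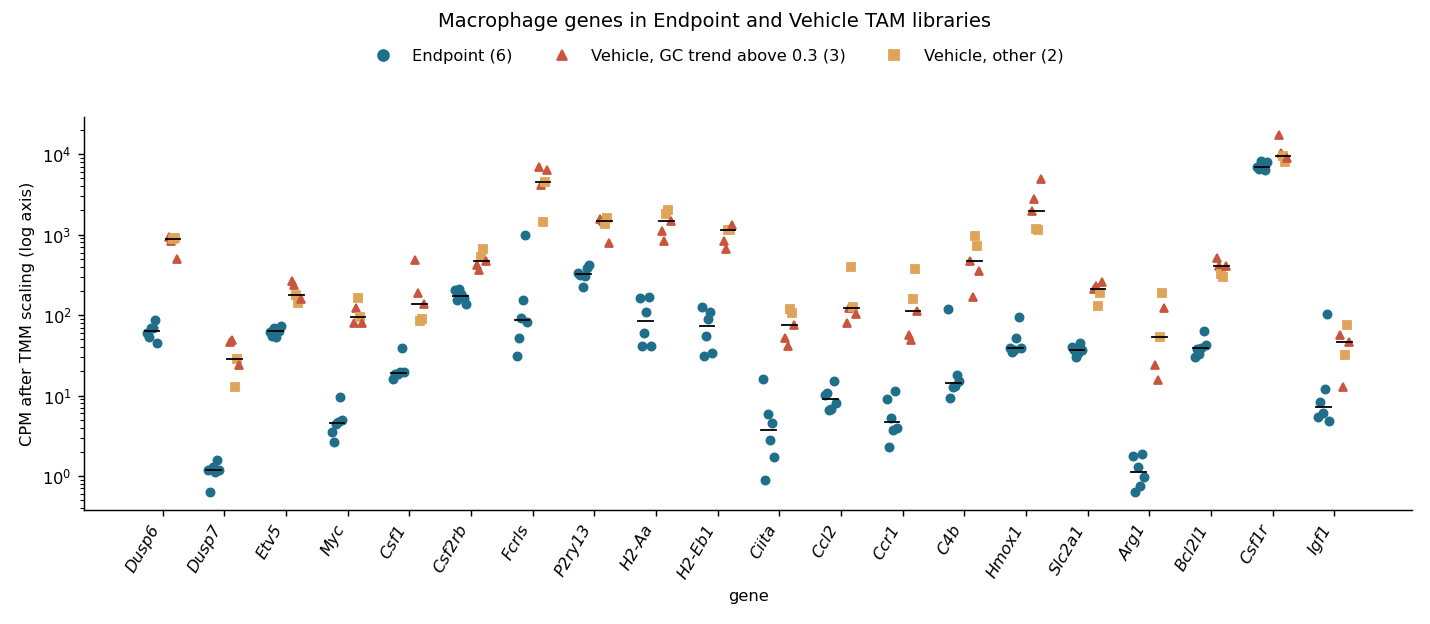
CPM after TMM scaling (log axis) of 20 genes, of which all but Igf1 fell at Endpoint, 1 point per mouse. The 6 Endpoint libraries, the 3 Vehicle libraries with a GC trend above 0.3 and the other 2 have separate symbols, and black lines are group medians. All but Myc, Etv5 and C4b are higher in the TAM sort at Rebound. Dusp6 lies between 45.0 and 86.0 CPM at Endpoint and at 500.2 CPM or more in Vehicle, and Hmox1 between 35.2 and 94.3 CPM at Endpoint and between 1150.1 and 4865 CPM in Vehicle.

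Genes along the path from glucose uptake to lactate fell. Slc2a1, the glucose transporter GLUT1, read 29.8, 36.7 and 45.1 CPM against 209, 233, 131, 187 and 256. No library overlapped, and it fell by 2.46 log2 units (adjusted p = 1.3e-06). Pfkp, a form of phosphofructokinase, fell by 2.87 (adjusted p = 0.00085), and Ldha, which makes lactate, by 1.72 (adjusted p = 0.00043), with the caution that Ldha has near-identical copies. Adm, the hypoxia-induced peptide adrenomedullin, is higher in the tumour cell sort. It fell too, with 0 to 0.236 CPM at Endpoint and 4.36, 7.20, 3.48, 13.6 and 32.7 CPM in Vehicle (adjusted p = 2.5e-05). The exception was Aldoc, the brain form of aldolase and a marker of astrocytes, which read 78.4, 139 and 209 CPM against 47.9, 21.6, 37.9, 45.96 and 25.9 and rose by 2.02 (adjusted p = 0.00056). The summed level of 16 astrocyte markers was 1717 to 3302 CPM at Endpoint and 1289 to 2561 CPM in Vehicle, and the ranges overlapped. Of the 16 markers 11 rose, 5 of them in all 4 fits, beside 13.7% of all genes. Their part in the rise of Aldoc was not tested.

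Of 31 genes of lipid uptake, storage and efflux 16 fell and 2 rose. Ch25h, which makes 25-hydroxycholesterol, read 0.709, 3.05 and 9.12 CPM against 131, 99.4, 57.5, 56.8 and 129, a log2 fold change of -4.62 ± 0.95 (adjusted p = 0.0019). Apoc2, an activator of lipoprotein lipase, fell by 4.18 (adjusted p = 0.00093), the cholesterol exporter Abcg1 by 1.89 (adjusted p = 0.00039) and the lysosomal acid lipase Lipa by 1.40 (adjusted p = 8.6e-05). In the list of cholesterol and fatty acid synthesis 9 of 30 fell and 3 rose, beside 19.3% lower and 13.7% higher of all genes. In all 4 fits 4 of these fell and 2 rose. Over the settings tried 3 to 9 were lower and 1 to 8 higher, so the direction of this list was not stable. Fatty acid synthase Fasn fell by 1.43 (adjusted p = 0.00020). Scd1, a fatty acid desaturase, rose by 2.07 (adjusted p = 0.00032). Both Fasn and Scd1 are higher in the tumour cell sort.

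Of 18 cathepsins and cystatins 7 fell, 3 of them in all 4 fits, and none rose, with a median log2 fold change of -0.41. Ctsb, cathepsin B, read 5108, 6165 and 10468 CPM against 25508, 15126, 15456, 22500 and 18753, a log2 fold change of -1.52 ± 0.22 (adjusted p = 7.6e-05). Ctsl, cathepsin L, fell by 1.68 (adjusted p = 8.3e-06) and Grn, progranulin, a lysosomal protein that is not a protease, by 1.26 (adjusted p = 0.00015). Ctsd, cathepsin D, fell by 1.55 (adjusted p = 0.0014) but overlapped between the groups and was not called against mice 57098 and 57682 (-0.94, adjusted p = 0.078).

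Genes of alternative activation, the macrophage state induced by IL-4, bear on the study's title. Il4ra, the signalling chain of the IL-4 receptor, read 148, 180.0 and 237 CPM against 762, 637, 648, 1046 and 2006. The groups did not overlap, and the log2 fold change was -2.48 ± 0.27 (adjusted p = 5.0e-06). Arg1, arginase, a target of IL-4 in mouse macrophages, read 0.631, 1.13 and 1.89 CPM against 23.9, 15.7, 53.3, 190.4 and 122. Its 66.3-fold fall (adjusted p = 0.00041) was 43.4-fold without Vehicle mouse 57682 and did not pass with limma-voom (adjusted p = 0.059). Igf1, the growth factor of the title, read 4.76, 7.22 and 102 CPM against 57.1, 12.6, 31.5, 76.2 and 46.8; the highest Endpoint value, above every Vehicle library, is that of mouse 49843. Its log2 fold change of -0.96 ± 0.75 was not called (adjusted p = 0.35), but was -2.62 (adjusted p = 0.00011) without that mouse and -1.92 (adjusted p = 0.020) with limma-voom and all mice.

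Transcription factors fell more often than they rose, with 24 of 43 lower and 3 higher, 11 and 2 in all 4 fits. Bhlhe40, a helix-loop-helix repressor, read 7.21, 11.97 and 21.6 CPM against 143, 82.2, 129, 289.8 and 177, a log2 fold change of -3.55 ± 0.59 (adjusted p = 0.00039). Klf2, a zinc finger factor, lay under 1 CPM at Endpoint and at 2.61, 6.27, 4.60, 3.42 and 6.43 CPM in Vehicle (adjusted p = 0.0012). Mef2a, a MADS box factor, read 138, 165 and 261 CPM against 76.9, 79.5, 83.9, 90.9 and 61.05 and rose by 1.20 (adjusted p = 0.00013). Cebpa, a factor of myeloid differentiation, rose by 1.07 (adjusted p = 0.016) with 1 Vehicle library inside the Endpoint range.

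The lowest p-value of all genes was that of Cln8, which encodes a membrane protein of the endoplasmic reticulum (chr8:14881335-14901720, mm10). It read 15, 26.6 and 32.7 CPM against 284, 257, 226, 216 and 256, a log2 fold change of -3.29 ± 0.22 (adjusted p = 9.0e-08). Close behind came Lrrc33, a partner of latent TGF-beta on myeloid cells, which read 25.3, 33.5 and 39.7 CPM against 507, 463, 374, 255 and 373 (log2 fold change -3.59 ± 0.28, adjusted p = 2.5e-07). The adaptor Lcp2, known as SLP-76, fell by 2.42 (adjusted p = 2.5e-07), and Emr1, the F4/80 antigen of mouse macrophages, by 1.75 (adjusted p = 8.6e-07). Ogdh, a subunit of a citric acid cycle enzyme, fell by 1.50 (adjusted p = 3.9e-07).

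Of 33 genes of the leukocyte actin cytoskeleton 18 fell and 1 rose, and of 24 integrins and CD44 9 fell and 4 rose. Among all genes 19.3% fell and 13.7% rose. Over the settings tried 7 to 9 of the integrins and CD44 were lower and 0 to 5 higher. Rac2, the blood cell Rac GTPase, read 318, 381 and 448 CPM against 813, 777, 739, 1014 and 1300.2 and fell by 1.30 (adjusted p = 2.6e-05). Elmo2, part of a Rac activator, fell by 1.91 (adjusted p = 3.9e-07), the ARF activator Cyth4 by 1.64 (adjusted p = 1.0e-06), the myosin Myo1f by 1.45 (adjusted p = 7.5e-06) and actin itself, Actb, by 0.77 (adjusted p = 0.0041). Among adhesion genes Itgb3 fell by 2.02 (adjusted p = 2.4e-06) and Itgb7 by 2.90 (adjusted p = 0.00050). Adam8, a surface protease, read 1.69, 3.07 and 7.55 CPM against 59.2, 37.5, 80.1, 121 and 135, a log2 fold change of -4.55 ± 0.64 (adjusted p = 0.00011). Tgfbi, a matrix protein and one of the monocyte markers, fell by 3.66 (adjusted p = 0.00041). Anxa2, a membrane-binding annexin, fell by 4.27 (adjusted p = 0.00030) and the galectin Lgals1 by 3.58 (adjusted p = 0.00012). Lgals3, galectin-3, fell by 3.25 (adjusted p = 0.0016), with a log2 fold change of -4.22 without Endpoint mouse 49843.

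Of 30 regulators of cell death 7 fell and 3 rose, shares near those of all genes (19.3% lower and 13.7% higher), with a median log2 fold change of -0.04; 5 of the former and none of the latter were called in all 4 fits. Bcl2l1, which encodes the survival protein BCL-XL, read 29.8, 38.5 and 64.3 CPM against 516, 403, 324, 294 and 411. It fell by 3.25 log2 units (adjusted p = 3.2e-06), with no overlap. Bid, a gene that promotes death, read 12.4, 14.4 and 18.4 CPM against 51.7, 52.3, 94.04, 86.8 and 57.1 and fell by 2.19 (adjusted p = 5.0e-06).

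Among the 299 genes of the TAM sort that rose, several encode surface or secreted immune proteins. Tnfsf13b, the B cell survival factor BAFF (chr8:10006467-10039072, mm10), read 147, 169 and 233 CPM at Endpoint and 24.96, 48.8, 52.1, 23.3 and 12.6 in Vehicle. Every Endpoint library lay above every Vehicle library, and the log2 fold change was 2.46 ± 0.32 (adjusted p = 3.0e-05), a 5.49-fold rise. Lilra5, an activating receptor, read 29.7, 54.6 and 77.2 CPM against 16.9, 12.5, 7.18, 5.87 and 7.33, a log2 fold change of 2.46 ± 0.32 (adjusted p = 2.6e-05), and the inhibitory receptor Pilra rose by 1.77 (adjusted p = 7.1e-05). Icosl, a costimulatory ligand for T cells, rose by 1.01 (adjusted p = 0.00081). Vcam1, an adhesion molecule, read 198, 259.8 and 368 CPM against 62.9, 57.1, 156, 67.6 and 14.2 and rose by 1.86 (adjusted p = 0.0023). The potassium channel Kcna3 read 8.84, 10.5 and 13.8 CPM against 1.64, 0.533, 2.33, 1.92 and 1.07, a log2 fold change of 2.89 ± 0.35 (adjusted p = 1.3e-05).

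Other genes of the TAM sort rose as well, a class in which 9.41% of genes rose and 36.1% fell. Mapk14, the stress kinase p38 alpha, read 132, 161 and 196 CPM against 65.9, 77.2, 60.99, 57.2 and 54.1 and rose by 1.36 (adjusted p = 3.4e-05). The calcium-dependent kinase Camk1d rose by 1.50 (adjusted p = 3.2e-06) and Senp2, a SUMO protease, by 1.65 (adjusted p = 1.3e-05). Ivns1abp rose by 1.31 (adjusted p = 0.00025) and Lrrc3 by 0.95 (adjusted p = 0.0028). Cybb, the catalytic chain of the phagocyte oxidase, rose by 1.38 (adjusted p = 0.014) but rested on the kind of Vehicle library, with 2.50 (adjusted p = 2.2e-05) against mice 54359, 54363 and 64247 and 0.51 (adjusted p = 0.27) against the other 2.

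**Figure D4:**
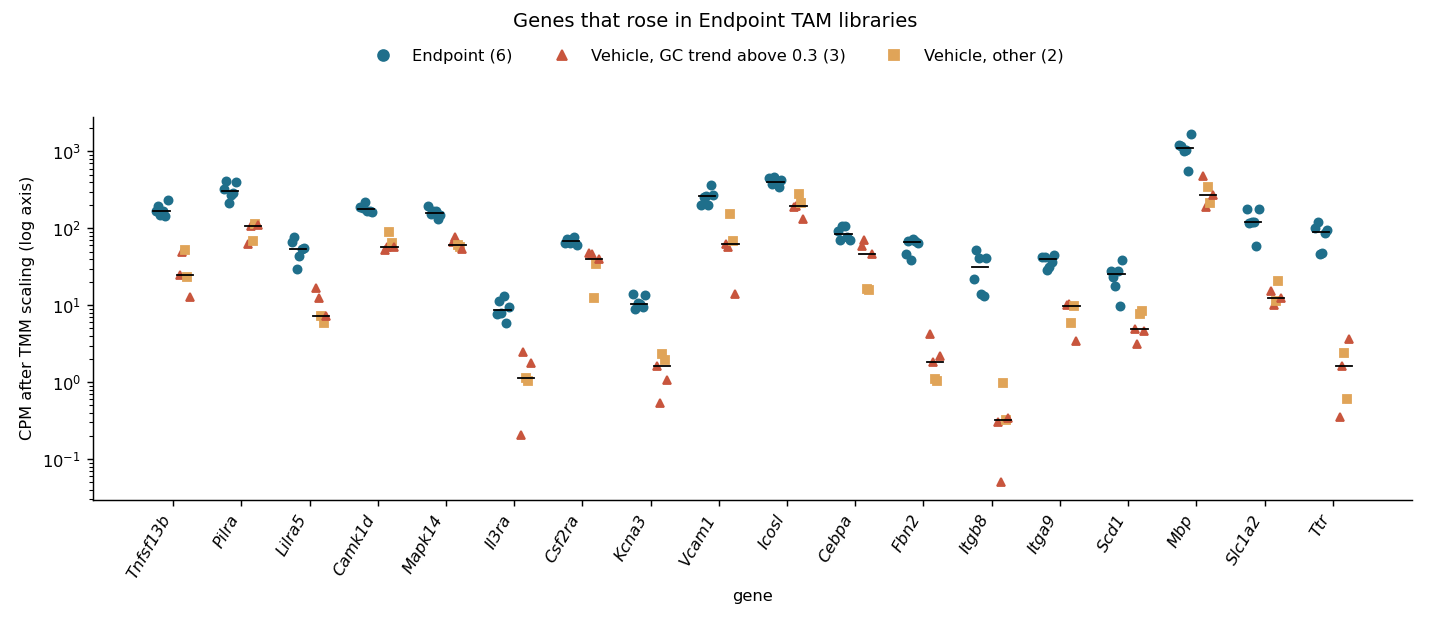
CPM after TMM scaling (log axis; values under 0.05 drawn at 0.05) of genes that rose at Endpoint, 1 point per mouse, in the same symbols and with group medians as black lines. Tnfsf13b lies between 147 and 233 CPM at Endpoint and at or under 52.1 CPM in Vehicle, and Itgb8 at 13.4 CPM or more at Endpoint and under 1 CPM in Vehicle.

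Steep rises were seen in genes that the TAM sort does not favour. Fbn2, a fibrillin of the extracellular matrix, read 39.05, 66.6 and 73.04 CPM at Endpoint and 4.20, 1.82, 1.11, 1.03 and 2.19 in Vehicle. It rose by 4.87 log2 units (adjusted p = 2.5e-07), a 29.2-fold rise. Itgb8, the integrin chain that with alpha v activates latent TGF-beta, read 13.4, 31.4 and 51.8 CPM against 0.307, 0, 0.970, 0.320 and 0.343. The log2 fold change of 6.23 ± 0.68 (adjusted p = 7.8e-06) was 6.92 without Vehicle mouse 57098, the highest of its group. Itga9, an integrin chain for tenascin and other ligands, rose by 2.25 (adjusted p = 0.00013). The ligand Tgfb2 rose by 3.09 (adjusted p = 0.0015), or 3.89 without Vehicle mouse 54359. Bambi, a decoy receptor of the TGF-beta family, rose by 2.97 (adjusted p = 0.0023), or 3.72 without that mouse. Fbn2, Itgb8, Itga9 and Tgfb2 are higher in the tumour cell sort, and Bambi differed in neither direction by the test.

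Several genes favoured by neither sort also rose. Glud1, glutamate dehydrogenase, read 91.3, 103 and 120.4 CPM against 39.5, 47.9, 41.6, 33.8 and 42.7 and rose by 1.33 (adjusted p = 2.8e-06). Sgpp1, a sphingosine-1-phosphate phosphatase, rose by 1.72 (adjusted p = 1.9e-06), Suz12, a subunit of the Polycomb repressive complex, by 1.56 (adjusted p = 1.1e-05) and Rtn4, the reticulon Nogo, by 1.47 (adjusted p = 7.3e-06).

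Markers of several other brain cells were higher at Endpoint. Mbp, myelin basic protein, read 559, 1106 and 1665 CPM against 485, 187, 346, 214 and 269 and rose by 1.89 (adjusted p = 0.0012). Summed over 12 genes of myelinating oligodendrocytes, with Mbp by far the most abundant, the level was 731 to 2219 CPM at Endpoint and 334 to 534 CPM in Vehicle. Of the 12, 4 rose, 2 of them in all 4 fits, and 2 fell: Mag, the myelin-associated glycoprotein, by 0.67 (adjusted p = 0.012) and Cnp, a phosphodiesterase of myelin, by 0.64 (adjusted p = 0.022), neither in all 4 fits. Cnp was not called without Vehicle mouse 54359 (-0.52, adjusted p = 0.069) or 64247 (-0.60, adjusted p = 0.050). Slc1a2, the glutamate transporter of astrocytes, read 59.7, 121 and 181 CPM against 15.4, 10.1, 11.5, 20.5 and 12.4, a log2 fold change of 3.21 ± 0.45 (adjusted p = 6.7e-05). Ttr, transthyretin of the choroid plexus, read 46.4, 90.3 and 122 CPM against 0.359, 1.64, 2.37, 0.605 and 3.64 (log2 fold change 5.57 ± 1.09, adjusted p = 0.0014; adjusted p = 0.066 with limma-voom). Ttr made up most of the sum of choroid plexus and ependymal markers at Endpoint, which was 57.0 to 148 CPM against 2.17 to 4.70 CPM; 3 of 6 tested members rose, 1 of them in all 4 fits, and Ccdc153 and Tmem212 were at 0 in all Endpoint libraries. Neuronal markers summed to 24.0 to 63.4 CPM against 11.8 to 19.3 CPM, with 4 of 10 higher, 1 in all 4 fits. The ranges of the oligodendrocyte, choroid and neuronal sums did not overlap. Markers of tumour and progenitor cells overlapped, at 32.7 to 84.5 CPM against 33.5 to 63.2 CPM, as did those of neutrophils, at 366 to 1194 CPM against 438 to 1023 CPM. The part of other cells in the genes that rose was not tested.

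**Figure D5:**
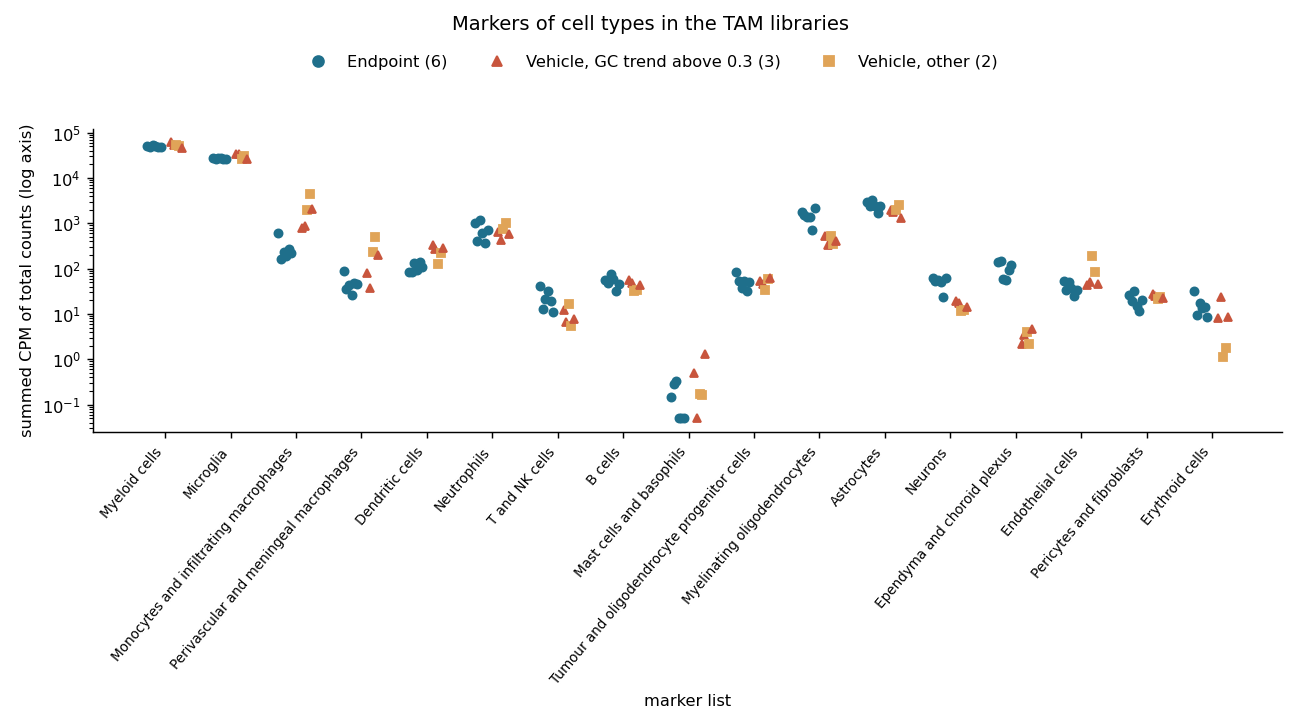
Summed CPM of total counts (log axis; values under 0.05 drawn at 0.05) of the marker genes of each cell type, 1 point per mouse, for Endpoint and both kinds of Vehicle library. Monocyte markers lie lower at Endpoint (164 to 608 CPM against 806 to 4437 CPM), and those of myelinating oligodendrocytes, neurons and choroid plexus lie higher, without overlap.

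Proliferation genes gave few calls. Mki67, expressed in dividing cells, read 88.6, 153 and 202 CPM against 11.7, 55.9, 110.4, 50.2 and 88.8, and the groups overlapped. This gene is higher in the tumour cell sort. Its log2 fold change of 1.25 ± 0.41 (adjusted p = 0.026) was not called against Vehicle mice 57098 and 57682 (0.90, adjusted p = 0.11), nor without Endpoint mouse 49845 (adjusted p = 0.051) or Vehicle mouse 54363 (adjusted p = 0.051) or 57682 (adjusted p = 0.056). The call was also lost with the GC trend removed (0.82, adjusted p = 0.11) and with no filter on low counts (adjusted p = 0.057).

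Since every Endpoint count is even, the comparison was repeated with the counts of the BLZ945 libraries halved. It then gave 1952 higher and 2521 lower genes, and each of the 128 named genes it could test stayed on the same side of the threshold.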

How the data were processed

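The authors deposited raw counts for 23337 gene symbols in 32 libraries, without normalization. Reads were aligned with STAR 2.3.0e to mm10 and handled with SAMtools, per the submitters' processing notes; which program counted the reads, and on which annotation, is not given in the sources used here. The kit does not mark strand, so reads of overlapping genes cannot be told apart. Groups came from cell type and stage in the labels; no pair of libraries agreed within sampling noise.

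The deposited counts were tested with edgeR 4.0.16 in R 4.3.3: filterByExpr, TMM scaling, glmQLFit with robust=TRUE and glmQLFTest over the 16 TAM libraries (5 Rebound), Benjamini-Hochberg adjustment over 13315 genes and a threshold of 0.05. Adjusted p-values are from this test unless another tool is named. Standard errors come from the F statistic, and folds from the log2 fold change. Sort classes came from a 6-group fit of 15668 genes over 32 libraries. Scripts were tested on simulated data. GC content and length were available for 13177 tested genes; coordinates are from GENCODE M21 (GRCm38).

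Alternatives were other scalings and filters, DESeq2 1.42.0, limma-voom (limma 3.58.1), halved or thinned counts, fewer libraries and GC trend removal; the GC removal and the split of Vehicle libraries were chosen after seeing the data. Members and lists were chosen with earlier results of these data known. Candidates for naming in each direction were the 15 lowest p-values with at least 1 log2 unit, 20 CPM and no overlap. The same rule was applied to genes of the TAM sort that rose. The 10 largest differences in mean CPM in each direction and up to 4 called members of each list with the largest log2 fold change were added. So were Csf1r, Igf1, Il4ra, Mrc1, Arg1, Csf1, Il34, Csf2rb and Dusp6. Only part of these candidates are named in the text, without a fixed rule for that choice. The other named genes were chosen after their values were seen. Some list members are not reported here by name.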

Additional observations from a re-analysis of the deposited data

Results flagged for a closer look

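For 29 of 258 combinations of a named gene and a group (129 genes in 2 groups), 1 library lay far from the others of its group, by the gap between it and its nearest neighbour relative to the range of the group. Chance alone would single out about 1 in 20 groups if values were normally distributed, which was not tested for these CPM values. Endpoint mouse 49843 accounted for 11 of the 29, in each of which it was the highest of its group. Its levels were 39.1 CPM for Csf1, 9.59 CPM for Myc, 1004 CPM for Fcrls, 10.8 CPM for Ecscr, 19.8 CPM for Msr1, 94.3 CPM for Hmox1, 581 CPM for Ctsl, 102 CPM for Igf1, 160.2 CPM for Ogdh, 64.3 CPM for Bcl2l1 and 80.2 CPM for Lgals3. All 11 genes had lower medians at Endpoint than in Vehicle. Endpoint mouse 49823 stood high in Ciita (15.8 CPM), Ccr2 (44.5 CPM), C4b (118 CPM) and Adm (0.236 CPM). Among the other Endpoint mice, 49830 stood low in H2-DMa (252 CPM) and high in Fcrl1 (24.1 CPM), and 49831 stood low in Mrc1 (4.31 CPM).

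In the Vehicle group, mouse 54359 stood high in Csf1r (17411 CPM), Csf1 (487 CPM) and Grn (8238 CPM). Mouse 64247 stood low in Dusp6 (500.2 CPM) and P2ry13 (785 CPM) and high in Ldha (2170 CPM), Lgals1 (488 CPM) and Lgals3 (472 CPM). Mouse 57098 stood high in Ccl2 (392 CPM) and low in Rpl29 (0.934 CPM), and mouse 57682 stood high in Ccr2 (777 CPM).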

How the results depend on the processing

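The number of genes higher and lower stayed within 1.5 times of 1821 and 2569 in every setting tried. It was 1944 and 2419 with the 11 libraries alone, 2195 and 2685 with DESeq2, 2042 and 2292 with limma-voom, 1520 and 2417 with no filter on low counts, 2497 and 1921 with upper-quartile scaling, and 1904 and 2270 after halving and thinning to one total. Without Vehicle mice 54359, 54363 and 64247 it was 1473 and 2078, and without the other 2 it was 2106 and 2721. Leaving out 1 library in turn gave 1462 to 1790 higher and 2208 to 2570 lower genes, and 44.2 to 48.7% of list members called, beside 48.0% with all libraries. Of all 13315 genes tested, 33.0% were called in either direction with all libraries. Over all genes, 610 of the 1821 higher and 1167 of the 2569 lower calls held in all 4 fits. The named genes were picked for low p-values or large differences, or after their values were seen. Their share of stable calls therefore does not carry over to all calls. Of 129 named genes, 119 were called, and 106 of these kept the call under every alternative that tested them. Signs turned only in genes without a call: Il34 (0.047 without Vehicle mouse 54359, with -1.29 to 0.047 over the libraries left out in turn), Gpr34 (-0.33 with the GC trend removed), Tmem119 (0.24 without the 3 Vehicle mice named first) and Tyrobp. Tyrobp was at 0.19 with the GC trend removed, 0.10 with upper-quartile scaling, 0.38 without those 3 mice, 0.031 without Rn45s and tumour cell sort genes and -0.17 to 0.10 over the libraries left out in turn; the cause was not tested. No paired analysis was possible because Endpoint and Vehicle share no mouse. Depth limits the folds of genes near 0 CPM in 1 group (Arg1, Kit, Tnfsf9, Rpl29 and Itgb8 among them), which are fitted values, and mice numbered in separate ranges, even counts and treatment cannot be told apart.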

Other observations

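Other gene groups held more genes that fell than rose at Endpoint, beside 19.3% of all genes lower and 13.7% higher. Of 31 proteasome subunits 19 fell, but only 6 of them in all 4 fits, and none rose. Over the settings tried 13 to 21 fell. Psmd2, a subunit of the regulatory particle, read 125, 143 and 193 CPM at Endpoint (lowest, median and highest of 6 mice) and 295, 283, 326, 342 and 368 in the 5 Vehicle mice. The groups did not overlap, and it fell by 1.10 log2 units (adjusted p = 3.4e-05 with edgeR). Of 23 antioxidant genes controlled by NRF2, 10 fell and none rose (8 to 12 lower over the settings). Osgin1, an oxidative stress response gene, read 0.710, 1.41 and 2.36 CPM against 24.8, 10.5, 16.1, 36.5 and 29.7 and fell by 3.93 (adjusted p = 6.1e-06). Srxn1, which repairs peroxiredoxins, fell by 1.68 (adjusted p = 0.00063) and Pgd, an enzyme of the pentose phosphate pathway, by 1.26 (adjusted p = 0.00097). Of 31 pattern recognition receptors 16 fell and none rose (12 to 19 lower and 0 to 4 higher over the settings). Of 14 Fc receptors 8 fell and 1 rose (6 to 9 lower). Fcrl1, a gene of the Fc receptor-like family, read 7.55, 10.2 and 24.1 CPM against 86.04, 57.9, 34.7, 64.3 and 45.4 and fell by 2.26 (adjusted p = 0.00019). Of 25 costimulation and checkpoint ligands for T cells 12 fell and 2 rose (7 to 13 lower and 2 to 5 higher). Tnfsf9, the 4-1BB ligand, fell by 3.66 (adjusted p = 0.00018).

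Rpl29, a ribosomal protein gene with near-identical copies, and Hmgn2, a nucleosome-binding protein gene with copies of its own, were low in both libraries of some mice and high in both libraries of others. For Rpl29, the 15 mice with both sorts fell into 10 whose TAM and tumour cell libraries were both at or under 10 CPM of total counts and 5 whose libraries were both over 10 CPM. At Endpoint its TAM level was 0.38 to 0.575 CPM, and in Vehicle TAM libraries 0.906 to 63.3 CPM, with mouse 57098 alone among the Vehicle mice at the low end. In TAM libraries its fall (log2 fold change -6.87 ± 1.50, adjusted p = 0.0029 with edgeR) did not pass with limma-voom (adjusted p = 0.13). For Hmgn2, 9 of the 15 mice had both libraries at or under 10 CPM and 5 had both over 10 CPM, with Endpoint TAM at 4.89 to 7.90 CPM and Vehicle TAM at 3.26 to 64.3 CPM.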
